A study of Homo sapiens with 9 samples.

Results

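The kinesins are the family of motor proteins that walk along microtubules. Their genes were taken as every gene whose symbol in the array's annotation is KIF or KIFC followed by its member number, read from probe sets that match 1 gene only, with the brightest probe set standing for each gene and no filter on brightness. This gave 41 genes, with 85 probe sets, of 19775 genes in all. Expression was measured 24 h after transfection of SW1783, an established human glioma cell line, with synthetic duplexes at 50 nM, in 3 biological replicates per group and 9 arrays in all. The groups were cells given miR-376a*A, the unedited form of this microRNA, cells given miR-376a*G, in which G stands in for the inosine that A-to-I editing leaves in the seed, and control cells given a control miRNA. All groups therefore share the transfection itself, and no untransfected cells were analysed here. Each form was to be set against the control transfection, per the series' design, and the forms are compared with each other as well.

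Kinesins couple the hydrolysis of ATP to steps along microtubules, and most carry their load toward the growing plus end. Transport kinesins haul organelles, vesicles, mRNA and the building blocks of cilia. Mitotic kinesins build the spindle, align and separate chromosomes and complete cytokinesis, and their genes are transcribed mainly late in the cell cycle. In dividing glial tumour cells both classes are known to be in use. A microRNA lowers mRNAs that pair with its seed, bases 2 to 8 of the mature strand. The labels give no sequence for either duplex. The strand that older names call miR-376a* is hsa-miR-376a-5p of the MIR376A1 hairpin, and its RefSeq sequence (GRCh38.p14, chr14:101040788-101040809, plus strand) is shown because the 2 transfected forms differ in its seed, which is in capitals. The edited form is named only.
hsa-miR-376a-5p: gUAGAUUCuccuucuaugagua

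The kinesins were divided by role into 13 mitotic, 15 transport and 13 other members (ciliary, signalling, microtubule-regulating or little studied), and KIF4B, a mitotic member by its role, has no probe set in the annotation used. Values are deposited signals in arbitrary units, and differences are on the scale of log2(signal + 16) after quantile normalization, which understates the change of dim genes. A gene is called changed, higher or lower where limma's p, adjusted over all genes, was under 0.05. Signals of different probe sets are not levels that can be compared between genes. The mean of 1 mitotic, 2 transport and 5 other members lay below the median of all probe sets, so little can be said of these. Control replicate 1 stood apart from the other arrays, reaching a rank correlation of at most 0.941 with another array, where the others reached 0.969 to 0.970. Calls are therefore also given without it. Of the markers of the labelled cell type, VIM and CD44 were bright (mean signals of 2609 and 2355) and SOX9 was at 438, while the astroglial markers GFAP and S100B were near 0 (2.2 and 1.9) and NES was at 15.2. Below the median of all probe sets were 3 of 4 leukocyte markers (PTPRC at 7.6, CD14 at 0.9 and AIF1 at 14.6, with CSF1R at 29.0 above it), 2 of 3 epithelial markers (EPCAM at 3.8 and CDH1 at 7.1, with the keratin KRT18 at 1251), 1 of 2 endothelial markers (CDH5 at 5.7, with PECAM1 at 76.4) and 1 of 2 oligodendrocyte markers (MOG at 19.9, with MBP at 52.0). All 4 neuronal markers were above the median of all probe sets, and their summed signal was 931 to 998 under miR-376a*A and 587 to 755 under miR-376a*G, against 655 to 840 in control cells. Most of it was SYT1, which averaged 503.8 under miR-376a*A and 235 under miR-376a*G, against 507 in control cells, and SNAP25, which averaged 416 and 371, against 186. The part of these synaptic genes in the results below was not tested.

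In all, 5 of the 41 kinesins changed in at least 1 comparison: KIF1B, KIF3B, KIF3A and KIF16B of the transport class and KIF2C of the mitotic class. Under miR-376a*A, 1 kinesin was higher than in control and 1 lower, where 0.946% of all genes were higher and 0.769% lower. Under miR-376a*G, 1 kinesin was higher and 2 were lower, where 1.25% of all genes were higher and 1.09% lower. Between the forms, 2 were higher under miR-376a*A than under miR-376a*G and 0 were lower (the smallest limma adjusted p among lower members was 0.0712, for KIF16B), where 0.748% of all genes were higher and 0.612% lower. At an unadjusted p under 0.05, 7, 16 and 9 of the 41 differed in these comparisons, against 11.8%, 14.1% and 8.69% of all genes. Leaving out control replicate 1 raised the counts to 2 higher and 4 lower under miR-376a*A (2.99% and 3.08% of all genes), to 3 higher and 7 lower under miR-376a*G (4.05% and 4.22%), and to 4 higher and 2 lower between the forms (2.63% and 2.25%). The comparisons with control share the control arrays, and each pair of comparisons shares 1 group. On these bulk samples, fewer cells of a type and less RNA per cell cannot be told apart.

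**Figure D1:**
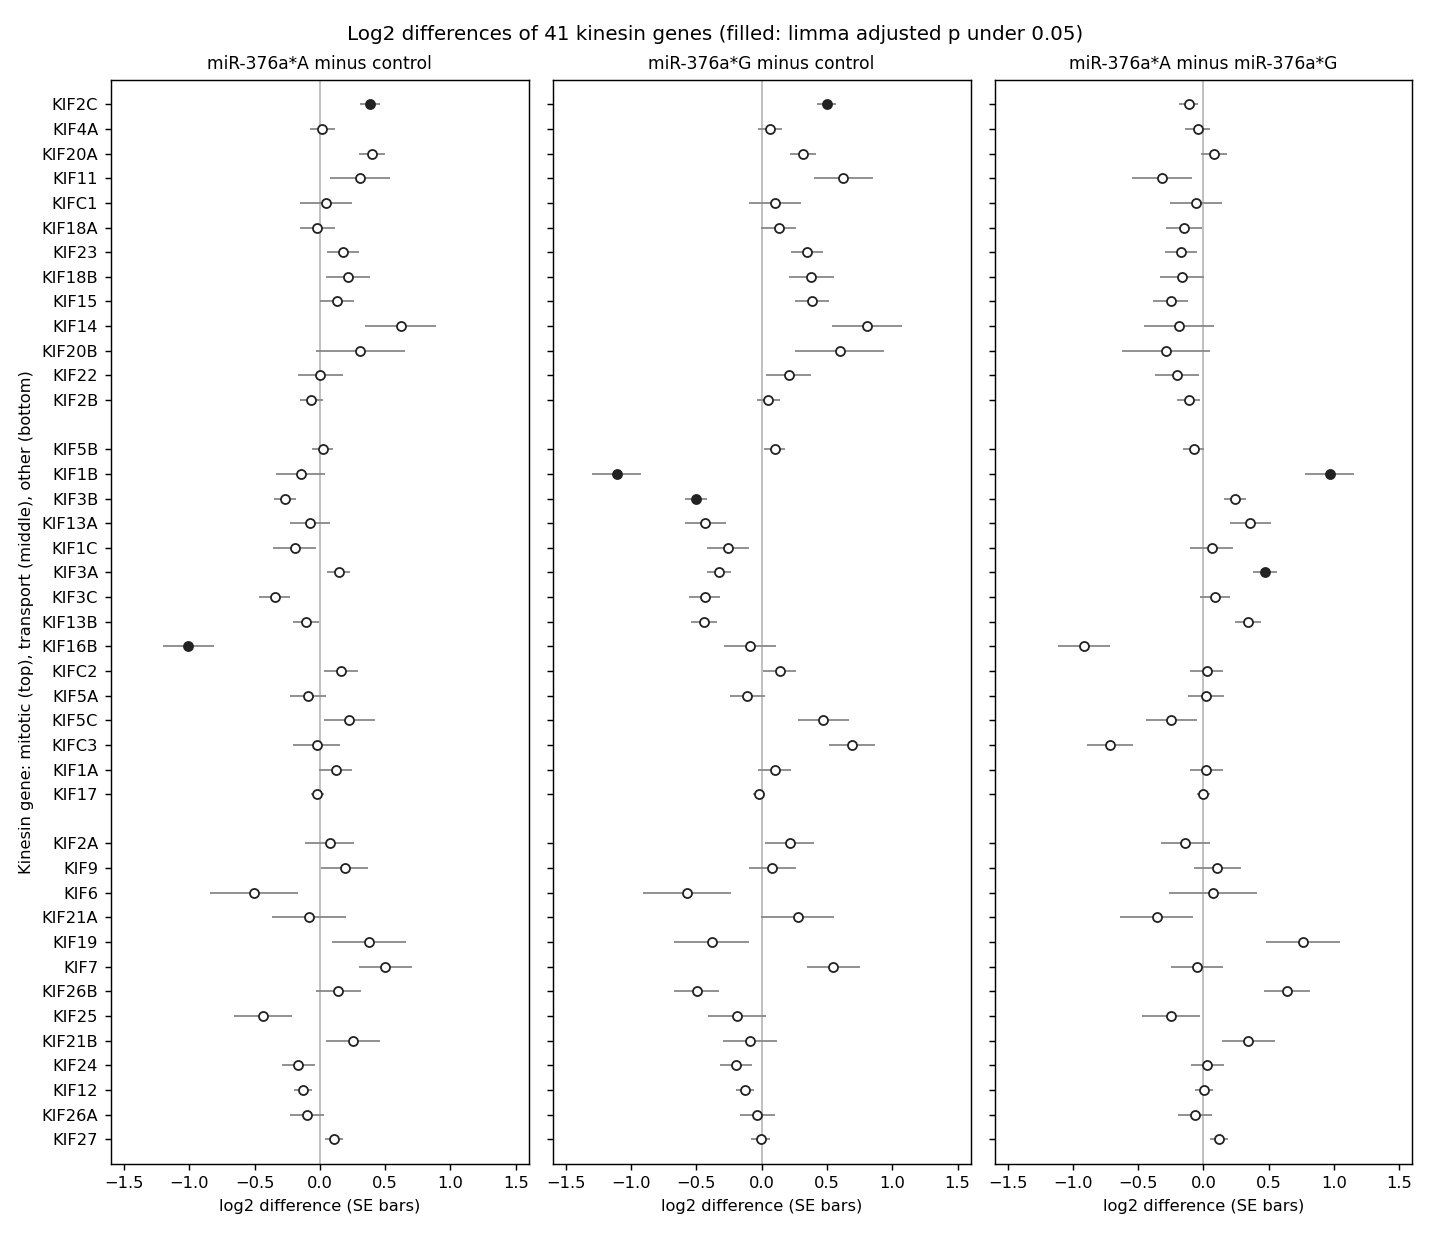
Log2 differences of the 41 kinesin genes (points, with SE bars from limma) for miR-376a*A minus control, miR-376a*G minus control and miR-376a*A minus miR-376a*G, with the mitotic class on top, the transport class in the middle and the other members at the bottom, each ordered by mean signal. Filled points passed an adjusted p of 0.05; under miR-376a*G all 13 mitotic members lie to the right of 0, while KIF1B at -1.11 is the lowest point of that panel and KIF16B at -1.01 the lowest under miR-376a*A.

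KIF1B, a motor that carries mitochondria and synaptic vesicle precursors, fell under miR-376a*G. Its signal was 703, 607 and 643 under miR-376a*A and 315, 362 and 307 under miR-376a*G, against 487, 858 and 816 in control replicates 1, 2 and 3. The miR-376a*G arrays were below all others, and the miR-376a*A arrays fell inside the range of the control arrays. The fall under miR-376a*G was 2.16-fold (log2 -1.11, SE 0.19, limma adjusted p = 0.0168), and without control replicate 1, the lowest control, it was -1.36 (adjusted p = 0.000138). The change under miR-376a*A was -0.15 (SE 0.19, limma adjusted p = 0.833), and the forms differed by 1.95-fold (log2 0.96, SE 0.19, limma adjusted p = 0.0428). The value under miR-376a*A became -0.39 when that array was left out, past the threshold (limma adjusted p = 0.0453). The call against control was lost without any of the 3 miR-376a*G arrays or control replicate 2 or 3 (limma adjusted p up to 0.0871). The call between the forms was lost without any of the 6 arrays compared (limma adjusted p = 0.122 to 0.197). In the fits that lost these calls, the differences themselves stayed between -1.19 and -0.98 and between 0.90 and 1.04.

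KIF1B has 3 further probe sets, which the choice of the brightest did not use. In a fit of all 54675 probe sets the brightest gave -1.11 under miR-376a*G (limma adjusted p = 0.0233), and probe sets with mean signals of 237 and 204 gave -0.80 and -0.98 (limma adjusted p = 0.0255 and 0.00619). The remaining probe set was dim, with a mean signal of 16.7, and gave -0.24 (limma adjusted p = 0.562). Under miR-376a*A the 4 probe sets lay between -0.15 and 0.20, all with limma adjusted p over 0.65. Between the forms only the probe set of mean signal 204 passed over all probe sets, at 1.18 (limma adjusted p = 0.00302), and the brightest then had an adjusted p of 0.0626.

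**Figure D2:**
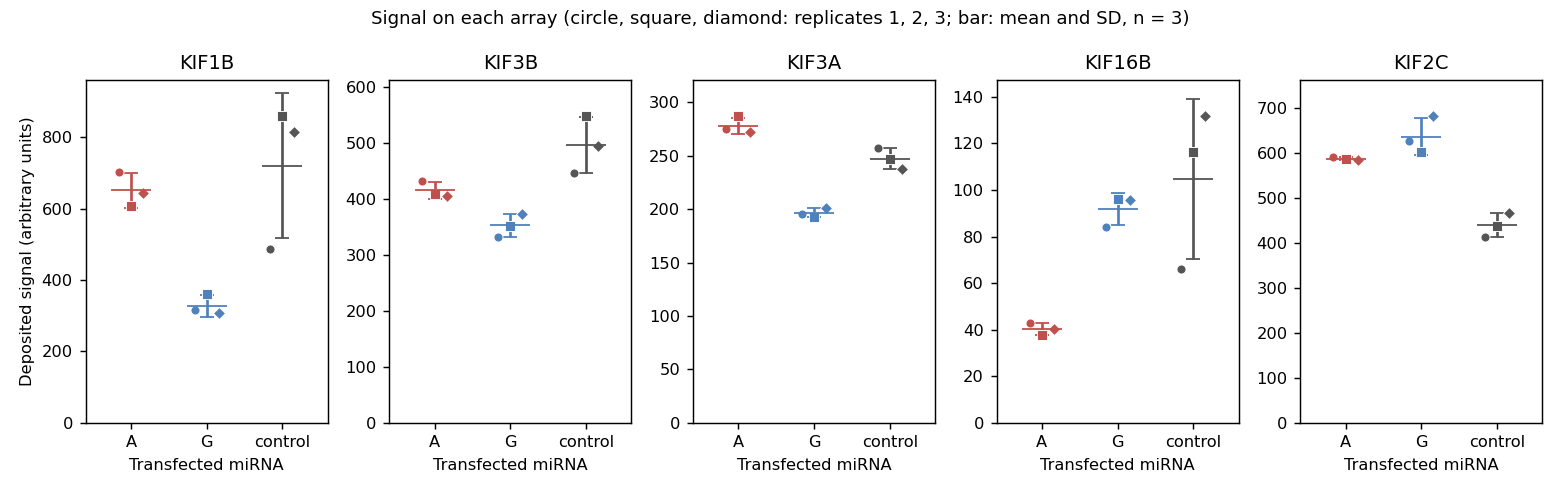
Deposited signal of KIF1B, KIF3B, KIF3A, KIF16B and KIF2C on each array (points; horizontal bars are means with SD, n = 3), with cells given miR-376a*A on the left, miR-376a*G in the middle and control on the right, on linear axes that start at 0. The 3 miR-376a*G arrays are the lowest for KIF1B, KIF3B and KIF3A, the 3 miR-376a*A arrays are the lowest for KIF16B, and the control arrays are the lowest for KIF2C.

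KIF3A and KIF3B form the heterodimeric motor of intraflagellar transport, which builds cilia, and both were lowest under miR-376a*G. KIF3B had signals of 433, 409 and 405 under miR-376a*A and 332, 352 and 373 under miR-376a*G, against 446, 547 and 495 in control cells. The groups did not overlap, and the miR-376a*A arrays stood between the other groups. The fall under miR-376a*G was 1.42-fold (log2 -0.50, SE 0.08, limma adjusted p = 0.0167), and it was -0.56 without control replicate 1 (adjusted p = 0.00203). Under miR-376a*A the change was -0.26 (SE 0.08, limma adjusted p = 0.226), which passed without control replicate 1 (-0.32, adjusted p = 0.0309), and the difference between the forms was 0.24 (SE 0.08, limma adjusted p = 0.364). The call under miR-376a*G was lost without any of the miR-376a*G arrays (limma adjusted p = 0.0509 to 0.0943) and when median centring replaced quantile normalization (-0.41, 0.149). A second probe set of KIF3B gave -0.45 under miR-376a*G and -0.04 under miR-376a*A (limma adjusted p = 0.128 and 0.951 over all probe sets).

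KIF3A had signals of 275, 287 and 272 under miR-376a*A, against 196, 193 and 201 under miR-376a*G, and 257, 247 and 237 in control cells. In these deposited signals the 3 groups did not overlap, and miR-376a*A was highest and miR-376a*G lowest. On the normalized values, which the overlap counts below use, the miR-376a*A and control arrays overlapped, while miR-376a*G stayed below both. The forms differed by 1.39-fold (log2 0.47, SE 0.09, limma adjusted p = 0.0408). Neither form passed against control, with 0.14 for miR-376a*A and -0.33 for miR-376a*G (SE 0.09 each, limma adjusted p = 0.605 and 0.116), although miR-376a*G did without control replicate 1 (-0.26, adjusted p = 0.0359). The call between the forms was lost without any of the 6 arrays compared or without control replicate 2 (limma adjusted p = 0.0647 to 0.211). A second probe set of KIF3A gave 0.36 between the forms (limma adjusted p = 0.842 over all probe sets).

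KIF3C, another partner of KIF3A, had signals of 212, 195 and 197 under miR-376a*A and 184, 202 and 184 under miR-376a*G, against 286, 231 and 258 in control cells. Both treated groups lay below the control arrays without overlap, and neither change passed the test, with -0.35 for miR-376a*A and -0.44 for miR-376a*G (SE 0.12 each, limma adjusted p = 0.258 and 0.109). Leaving out control replicate 1 gave -0.32 under miR-376a*G, which passed (limma adjusted p = 0.0410). A second probe set of KIF3C, of mean signal 75.8, gave only -0.16 under miR-376a*A and -0.06 under miR-376a*G with all arrays (limma adjusted p = 0.725 and 0.892 over all probe sets). KIFAP3, the cargo-binding subunit of this motor, was looked at after its partners' values were seen: it was at -0.12 under miR-376a*A and -0.21 under miR-376a*G (SE 0.21 each, limma adjusted p = 0.885 and 0.728). Its signal was 488 on control replicate 1, against 301 and 264 on the other control arrays, and without that array its values turned to 0.16 and 0.07.

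KIF16B, a motor of early endosomes that binds phosphoinositides, fell under miR-376a*A. Its signal was 43.0, 37.7 and 40.3 under miR-376a*A and 84.1, 96.2 and 95.6 under miR-376a*G, against 66.1, 116 and 132 in control replicates 1, 2 and 3. The miR-376a*G arrays lay inside the range of the control arrays. All 3 miR-376a*A arrays were below all others, and control replicate 1 was again the lowest control. The fall under miR-376a*A was 2.01-fold (log2 -1.01, SE 0.20, limma adjusted p = 0.0400), and -1.25 without control replicate 1 (adjusted p = 0.000196). The change under miR-376a*G was -0.09 (SE 0.20, limma adjusted p = 0.893), and -0.34 without that array (adjusted p = 0.0725). The difference between the forms, -0.92 (SE 0.20), missed the threshold with all arrays (limma adjusted p = 0.0712) and passed it without control replicate 1 (0.000542). Leaving out any other array ended the call against control (limma adjusted p = 0.0802 to 0.177), as did testing every probe set (0.0513). The second, dimmer probe set of KIF16B (mean signal 30.6) gave -0.09 under miR-376a*A (SE 0.14, limma adjusted p = 0.891), so the 2 probe sets of this gene disagree.

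**Figure D3:**
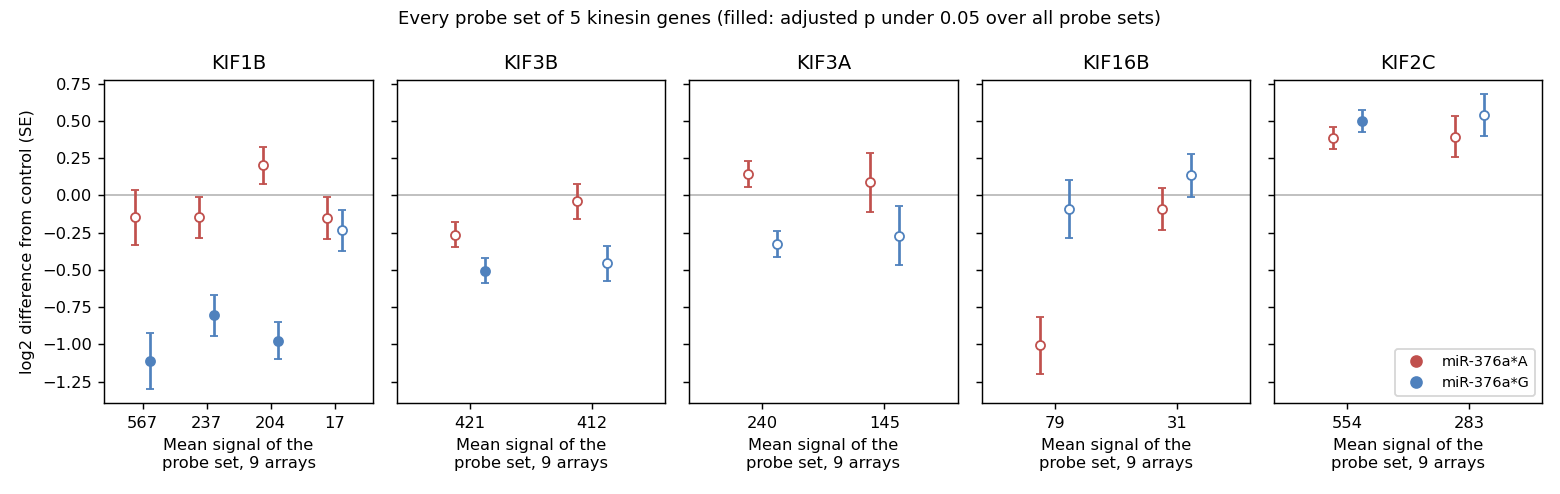
Log2 difference from control, with SE, of every probe set of KIF1B, KIF3B, KIF3A, KIF16B and KIF2C, where miR-376a*A stands left of miR-376a*G at each probe set, which is labelled on the horizontal axis by its mean signal over 9 arrays. Filled points passed an adjusted p of 0.05 over all probe sets: under miR-376a*G these are 3 of 4 probe sets of KIF1B and the brightest of KIF3B and KIF2C, and the dimmer probe set of KIF16B lies near 0 under miR-376a*A.

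The other transport kinesins did not pass the test with all arrays. KIF5B, the ubiquitous heavy chain of conventional kinesin, had signals of 1353, 1257 and 1402 under miR-376a*A and 1406, 1402 and 1313 under miR-376a*G, against 1289, 1362 and 1246 in control cells. These ranges overlapped throughout, and the changes were 0.02 and 0.10 (SE 0.08 each, limma adjusted p = 0.950 and 0.643). KIF13A, which carries endosomal cargo, had signals of 310, 307 and 233 under miR-376a*G, against 279, 457 and 402 in control cells, with control replicate 1 inside the range of the treated arrays. Its value of -0.43 (SE 0.16, limma adjusted p = 0.245) became -0.59 without that array, past the threshold (adjusted p = 0.0211). KIF13B, a close relative of KIF13A, had signals of 116, 126 and 115 under miR-376a*G, against 167, 161 and 171 in control cells, without overlap. Its value of -0.44 (SE 0.10, limma adjusted p = 0.0590) became -0.40 without control replicate 1 and passed (adjusted p = 0.0210). In the same fit KIF13B was also higher under miR-376a*A than under miR-376a*G (0.34, limma adjusted p = 0.0340), and KIFC3, a minus-end-directed motor, was lower (-0.71, adjusted p = 0.0167). KIFC3 was dim, at 19.4, 15.6 and 17.8 under miR-376a*A, against 36.2, 33.2 and 50.0 under miR-376a*G. Its second probe set, of mean signal 21.5, gave -0.01 between the forms and -0.003 under miR-376a*G with all arrays (limma adjusted p = 0.999 and 0.997 over all probe sets). The 2 probe sets of KIFC3 thus disagree. The neuronal KIF5A, KIF5C and KIF1A, the Golgi motor KIF1C, KIFC2 and KIF17 lay between -0.26 and 0.47 against control, with none past the threshold with or without control replicate 1. Leaving that array out gave 0.26 for KIF5C and -0.09 for KIF1C under miR-376a*G, where all arrays gave 0.47 and -0.26.

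Over the 15 transport kinesins the median change was -0.08 under miR-376a*A (5 above 0 and 10 below) and -0.11 under miR-376a*G (5 above and 10 below), beside medians of -0.00 over all genes in both comparisons. Of these, 1 fell under miR-376a*A (0.769% of all genes) and 2 fell under miR-376a*G (1.09%), 0 rose, and 14 and 13 did not pass. With control replicate 1 left out, 3 fell under miR-376a*A (3.08% of all genes) and 6 under miR-376a*G (4.22%), with 0 higher. The arrays did not overlap and were lower for 3 members under miR-376a*A (7.75% of all genes) and for 5 under miR-376a*G (8.67%). Under miR-376a*G 2 members, KIF5C and KIFC3, were higher without overlap, where 9.91% of all genes were, and did not pass. Between the forms the median was 0.02, and 2 members passed, both higher under miR-376a*A (0.748% of all genes), while 13 did not. Without overlap, 5 were higher (10.9% of all genes) and 2 lower (11.7%) under miR-376a*A than under miR-376a*G.

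The mitotic kinesins had medians above 0 under both forms, and KIF2C was the 1 member of 13 that passed the test. KIF2C, a microtubule depolymerase at centromeres that corrects wrong chromosome attachments, rose with both forms. Its signal was 591, 586 and 583 under miR-376a*A and 626, 601 and 680 under miR-376a*G, against 413, 436 and 466 in control cells. Every treated array was above every control array. The rise was 1.31-fold under miR-376a*A (log2 0.38, SE 0.07, limma adjusted p = 0.0363) and 1.41-fold under miR-376a*G (0.50, SE 0.07, adjusted p = 0.00920), and the forms differed by -0.11 (SE 0.07, adjusted p = 0.844). The rises were 0.36 and 0.48 without control replicate 1 (limma adjusted p = 0.0155 and 0.00392). The call under miR-376a*G held without any single array (limma adjusted p up to 0.0482), while that under miR-376a*A was lost without any miR-376a*A array, miR-376a*G replicate 1 or 2 or control replicate 2 (0.0749 to 0.171). A second probe set gave 0.40 and 0.54, neither past the threshold over all probe sets (limma adjusted p = 0.344 and 0.126).

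KIF20A, which works with the chromosomal passenger complex in cytokinesis, had signals of 435, 479 and 474 under miR-376a*A and 438, 422 and 465 under miR-376a*G, against 373, 306 and 355 in control cells. The treated arrays again lay above the control arrays without overlap. Its changes of 0.40 and 0.32 (SE 0.10 each, limma adjusted p = 0.107 and 0.172) passed without control replicate 1, at 0.49 and 0.41 (adjusted p = 0.00730 and 0.0148). KIF15, a spindle motor that helps keep the poles apart, had signals of 185, 198 and 218 under miR-376a*G, against 167, 124 and 154 in control cells. Its change of 0.38 (SE 0.13, limma adjusted p = 0.212) became 0.51 without that array (adjusted p = 0.0135). KIF4A, a chromokinesin of the spindle midzone, had signals of 488, 430 and 482 under miR-376a*A and 475, 463 and 520 under miR-376a*G, against 451, 413 and 498 in control cells. These ranges overlapped, with changes of 0.02 and 0.06 (SE 0.09 each, limma adjusted p = 0.966 and 0.834).

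Several mitotic members had a low value on control replicate 1 and a smaller difference without that array. KIF14, a cytokinesis motor, had signals of 130, 106 and 95.4 under miR-376a*A and 127, 141 and 118 under miR-376a*G, against 38.3, 92.7 and 92.0 in control replicates 1, 2 and 3. Its changes of 0.62 and 0.80 (SE 0.27 each, limma adjusted p = 0.409 and 0.201) were 0.26 and 0.44 without that array. KIF11, the motor that separates the spindle poles, had signals of 371, 424 and 359 under miR-376a*G, against 143, 281 and 329 in control cells, and its change of 0.63 (SE 0.23, limma adjusted p = 0.247) was 0.33 without that array. KIF20B, a motor of late cytokinesis, was at 0.60 under miR-376a*G (SE 0.34, limma adjusted p = 0.495) and at 0.13 without that array. A dim probe set of KIF20B, of mean signal 19.6, gave -0.33 under miR-376a*G and -0.50 under miR-376a*A with all arrays. Neither passed over all probe sets (limma adjusted p = 0.638 and 0.531). The probe set used gave 0.31 under miR-376a*A, so these 2 probe sets differ in direction. KIF18B, a regulator of astral microtubules, was at 0.38 under miR-376a*G (SE 0.17, limma adjusted p = 0.356), or 0.21 without control replicate 1. KIF23, the motor subunit of centralspindlin, went the other way. It was at 0.34 under miR-376a*G (SE 0.12, limma adjusted p = 0.237) and at 0.40 without control replicate 1 (adjusted p = 0.0800). Its signal on that array, 217, lay between those of the other control arrays (189 and 236). The chromosome-aligning KIF18A, the chromokinesin KIF22 and the spindle-pole motor KIFC1 lay between 0.10 and 0.21 under miR-376a*G. Without control replicate 1 KIF18A was at -0.01, while KIF22 and KIFC1 were at 0.39 and 0.33, further from 0 than with it, and none of the 3 passed. KIF2B was near 0 on all arrays, at 0.9 to 5.5.

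Over the 13 mitotic kinesins the median change was 0.17 under miR-376a*A (11 above 0) and 0.34 under miR-376a*G (13 above 0), beside a median of -0.00 over all genes. In each comparison 1 rose (0.946% of all genes under miR-376a*A and 1.25% under miR-376a*G), 0 fell and 12 did not pass. Leaving out control replicate 1 gave medians of 0.18 (10 above 0) and 0.33 (12 above 0). In that fit 2 and 3 members passed the threshold, all higher, where 2.99% and 4.05% of all genes were higher. The arrays were higher without overlap for 3 members under miR-376a*A (9.13% of all genes) and 6 under miR-376a*G (9.91%). Between the forms 12 of 13 were below 0, with a median of -0.16, and 4 were lower under miR-376a*A without overlap (11.7% of all genes). None of these 13 differences passed limma's test (0 with an unadjusted p under 0.05, smallest 0.0859, where 8.69% of all genes were under 0.05). Without control replicate 2 the medians against control were 0.07 under miR-376a*A and 0.24 under miR-376a*G.

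**Figure D4:**
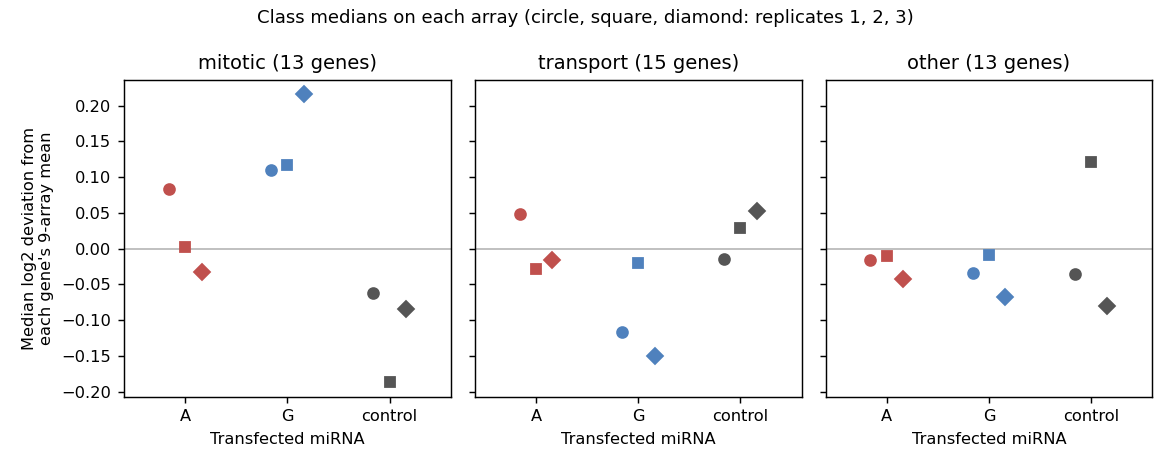
Median log2 deviation of the mitotic (13), transport (15) and other (13) kinesins from each gene's mean over 9 arrays, for each array (points), where miR-376a*A is on the left, miR-376a*G in the middle and control on the right. The mitotic medians are 0.11 to 0.22 on the miR-376a*G arrays, -0.03 to 0.08 on the miR-376a*A arrays and -0.19 to -0.06 on the control arrays, while the transport medians are lowest on miR-376a*G replicates 1 and 3.

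Promoter sequence was not used in the choice of genes, and none of the 4 motifs searched was in every mitotic member. RefSeq windows (GRCh38.p14) of 250 bases before to 50 after the start were found for 33 of the 41 kinesins. The motif TTTGAA, known as the cell cycle genes homology region through which cell cycle genes are held silent until late in the cycle, was searched on both strands. It was found in a window of 9 of 13 mitotic members (KIF4A, KIF11, KIF14, KIF15, KIF18A, KIF18B, KIF20B, KIF23 and KIFC1), 1 of 11 transport members (KIF5B) and 0 of 9 others, against 18.2% of 27305 genes. The related letters TTTAAA, which read the same on both strands, were in 4 of 13 mitotic members (KIF2C, KIF14, KIF20A and KIF23), 1 of 11 transport members and 0 of 9 others, against 14.5% of genes. The variant TTCGAA, also its own reverse complement, was in 1 mitotic member (KIF22), 0 transport members and 1 other, against 1.82% of genes. The motif CCAAT, the box bound by NF-Y, was in 10 of 13 mitotic, 4 of 11 transport and 3 of 9 other members, against 39.7% of genes. KIF2B held none of the 4 motifs, and KIF2C held neither TTTGAA nor CCAAT. Each motif was counted by itself, and neighbouring matches may share bases. A match is only a run of letters and not a site, and binding was not measured here.

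The promoters of 3 members are printed because their genes are the mitotic members that passed the test with or without control replicate 1. Each runs from 250 bases before the start to 10 after it, and capitals mark a match on either strand to the motif TTTGAA, to the related TTTAAA or to the box CCAAT. KIF2C lies at chr1:44739587-44739846, KIF20A at chr5:138178862-138179121 and KIF15 at chr3:44761544-44761803, all on the plus strand. KIF2C shows TTTAAA across the start of transcription and no CCAAT, KIF20A shows 2 CCAAT boxes before TTTAAA, and KIF15 shows TTTGAA, read on the opposite strand, without CCAAT.
KIF2C: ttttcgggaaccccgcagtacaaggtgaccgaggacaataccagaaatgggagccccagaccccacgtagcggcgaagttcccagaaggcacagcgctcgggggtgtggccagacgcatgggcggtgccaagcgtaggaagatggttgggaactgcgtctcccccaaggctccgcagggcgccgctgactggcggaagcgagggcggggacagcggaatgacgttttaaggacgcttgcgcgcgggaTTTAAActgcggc
KIF20A: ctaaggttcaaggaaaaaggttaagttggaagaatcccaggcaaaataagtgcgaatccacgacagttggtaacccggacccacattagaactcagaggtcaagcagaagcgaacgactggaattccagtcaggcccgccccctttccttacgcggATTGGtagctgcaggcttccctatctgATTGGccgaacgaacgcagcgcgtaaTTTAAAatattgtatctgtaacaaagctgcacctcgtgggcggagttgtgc
KIF15: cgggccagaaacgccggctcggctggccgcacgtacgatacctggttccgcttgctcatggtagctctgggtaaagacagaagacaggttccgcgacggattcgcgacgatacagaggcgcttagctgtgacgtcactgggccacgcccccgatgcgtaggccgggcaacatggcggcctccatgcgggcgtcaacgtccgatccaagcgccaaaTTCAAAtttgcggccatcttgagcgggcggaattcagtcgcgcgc

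None of the 13 other kinesins passed with all arrays in any comparison. The smallest limma adjusted p were 0.364 under miR-376a*A, 0.227 under miR-376a*G and 0.177 between the forms. In these comparisons 1, 2 and 2 had an unadjusted p under 0.05, against 11.8%, 14.1% and 8.69% of all genes. KIF2A, a microtubule depolymerase of neurons and spindle poles, had signals of 319, 299 and 292 under miR-376a*A and 328, 353 and 337 under miR-376a*G, against 182, 350 and 352 in control replicates 1, 2 and 3. Only control replicate 1 was apart, and the changes were 0.08 and 0.22 (SE 0.19 each, limma adjusted p = 0.923 and 0.673), which turned to -0.18 and -0.04 without it. KIF9, a motor of motile cilia, had signals of 221, 166 and 223 under miR-376a*A and 217, 205 and 146 under miR-376a*G, against 167, 205 and 153 in control cells, which overlapped. KIF6 had signals of 29.2, 48.4 and 25.9 under miR-376a*A and 24.9, 39.5 and 30.0 under miR-376a*G, against 106, 46.2 and 31.2 in control cells, with control replicate 1 far above the rest. KIF7, a regulator of Hedgehog signalling at the tip of the cilium, was at 0.50 and 0.55 (SE 0.20 each, limma adjusted p = 0.364 and 0.250). Its signal was 9.2 on control replicate 1, against 23.7 and 18.9 on the other control arrays, and without that array its values were 0.29 and 0.34.

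Once control replicate 1 was left out, KIF26B, a kinesin that lacks motor activity and acts in noncanonical Wnt signalling, was lower under miR-376a*G than in control (-0.68, limma adjusted p = 0.0166) and higher under miR-376a*A than under miR-376a*G (0.64, adjusted p = 0.0169). It was dim, at 28.0, 31.4 and 27.5 under miR-376a*A and 15.9, 14.9 and 9.1 under miR-376a*G, against 18.7, 32.3 and 31.2 in control cells. With all arrays its changes were 0.14 under miR-376a*A and -0.50 under miR-376a*G (limma adjusted p = 0.824 and 0.227). Another probe set of KIF26B, of mean signal 19.5, gave 0.0045 under miR-376a*G with all arrays (limma adjusted p = 0.996 over all probe sets). Between the forms it gave 0.23 (adjusted p = 0.975). A dimmer probe set, of mean signal 6.35, gave -0.21 and 0.04 (adjusted p = 0.718 and 0.999). The fall of KIF26B under miR-376a*G was thus not seen on the probe set of similar brightness. KIF21A, a motor that restrains microtubule growth, was lower under miR-376a*A without that array (-0.47, limma adjusted p just under 0.05), and at -0.08 with it. The remaining KIF12, KIF19, KIF21B, KIF24, KIF25, KIF26A and KIF27 had mean signals of 1.35 to 26.9 and values of -0.44 to 0.38 against control.

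The mitotic kinesins act with kinases, passengers and checkpoint proteins, and 19 of 20 listed partners were measured. The kinetochore protein NDC80 rose with both forms, by 0.71 under miR-376a*A (SE 0.12, limma adjusted p = 0.0183) and 0.89 under miR-376a*G (SE 0.12, adjusted p = 0.00520). The checkpoint kinase BUB1B and CDCA8, a subunit of the chromosomal passenger complex, rose under miR-376a*G, by 0.62 and 0.45 (limma adjusted p = 0.0142 and 0.0238). In all, 1 partner rose under miR-376a*A (0.946% of all genes) and 3 under miR-376a*G (1.25%), with 0 lower, and the medians were 0.19 and 0.30 (14 and 19 of 19 above 0). The counts without control replicate 1 were 6 higher and 1 lower under miR-376a*A (2.99% and 3.08% of all genes) and 9 higher under miR-376a*G (4.05%). CENPE, a mitotic kinesin whose symbol does not follow the KIF pattern and which was added after values were seen, was at 0.20 and 0.41 (SE 0.13 each, limma adjusted p = 0.633 and 0.193). Of 10 proliferation markers, CCNA2, cyclin A2, rose to 533, 538 and 519 under miR-376a*A and 581, 603 and 614 under miR-376a*G, against 171, 191 and 234 in control cells. Besides CCNA2, MKI67 (1.00) and CCNB2 (0.50) rose under miR-376a*G (limma adjusted p = 0.00766 and 0.00464). Of these markers 1 thus rose under miR-376a*A (0.946% of all genes) and 3 under miR-376a*G (1.25%), with 0 lower. Without control replicate 1, 6 rose under miR-376a*A (2.99% of all genes) and 6 under miR-376a*G (4.05%). CCNA2 was 1.34 higher under miR-376a*A and 1.51 under miR-376a*G on the log2 scale (SE 0.09 each, limma adjusted p = 0.000161 and 0.000106). All 10 markers were above 0 with both forms, with medians of 0.26 and 0.30. They ran from 0.13 to 1.58 under miR-376a*A and from 0.11 to 1.51 under miR-376a*G. The value of 1.58 belonged to a marker that did not pass with all arrays. Without control replicate 1, 9 of 10 were above 0 under miR-376a*G. The part of these markers in the values of the mitotic kinesins was not tested.

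Light chains, adaptors and cargo links of the transport kinesins, 18 of 20 listed genes measured, had medians of -0.08 under miR-376a*A and -0.06 under miR-376a*G. None passed limma's test with all arrays, and 3 and 2 had an unadjusted p under 0.05, where 11.8% and 14.1% of all genes did. Without control replicate 1, 1 of them was lower under miR-376a*G, where 4.22% of all genes were. It was SYBU, a syntaxin-binding adaptor of KIF5B (-0.54, limma adjusted p = 0.0264). The opposite motor, cytoplasmic dynein with dynactin and its regulators, had 22 of 24 listed genes measured. Of these PAFAH1B1, or LIS1, a regulator of dynein, fell under miR-376a*G, where 1.09% of all genes were called lower. Its signal was 668, 693 and 673 under miR-376a*A and 489, 501 and 485 under miR-376a*G, against 708, 765 and 848 in control cells. The 3 groups did not overlap. The fall under miR-376a*G was -0.67 (SE 0.08, limma adjusted p = 0.00407) and the forms differed by 0.46 (SE 0.08, adjusted p = 0.0315), in the direction seen for KIF1B and KIF3A. The other 21 members did not pass with all arrays, and the medians of the list were 0.05 under miR-376a*A and -0.04 under miR-376a*G. With control replicate 1 left out, 1 member was higher under miR-376a*A (NDE1, 0.39), where 2.99% of all genes were. In that fit 5 were lower under miR-376a*G (PAFAH1B1, NDEL1, BICD2, DYNLRB1 and DCTN4, at -0.73 to -0.34), where 4.22% of all genes were. It also had 3 higher under miR-376a*A than under miR-376a*G (DYNLRB1, PAFAH1B1 and DYNC1LI2, at 0.31 to 0.47), where 2.63% of all genes were. BICD2 and DCTN4 were at 0.01 and -0.05 under miR-376a*G with all arrays.

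The genes whose log2 values followed KIF1B most closely over the 9 arrays were the kinase HIPK2 (Pearson r = 0.995), the catalytic subunit PRKACB (0.989) and the histone deacetylase HDAC4 (0.987). Their values in this order were -0.20, -0.09 and -0.05 under miR-376a*A and -1.17, -0.89 and -0.95 under miR-376a*G. Those closest to KIF16B were ZNF451 (0.994), the ubiquitin ligase adaptor TNFAIP1 (0.991) and the translation factor DENR (0.989), at -0.88, -0.67 and -0.72 under miR-376a*A and at -0.01, -0.10 and -0.05 under miR-376a*G. These are the highest of 19775 genes over 9 arrays that fall into 3 groups, and they are given as a description.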

How the data were processed

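The authors deposited linear signal intensities for 54675 probe sets on 9 arrays, made with GCOS 1.4.0.036 per the submitters' processing notes. How probes were summarised and background removed is not given in the sources used here. Detection calls were not used. The trimmed mean (2% at each end) was 100.01 to 100.013 on the deposited arrays, so a change common to most transcripts would not be seen. Of the probe sets, 41097 had 1 gene symbol, 1801 several and 11777 none in the platform annotation, and 41043 matched a RefSeq gene ID (GRCh38.p14) with 0 symbols changed. Each gene was read from its brightest probe set by mean signal over the 9 arrays. The deposited intensities were turned into log2(signal + 16), quantile normalized and fitted for all 19775 genes and 3 groups together with limma 3.58.1 (R 4.3.3, lmFit and eBayes with a trend), with Benjamini-Hochberg adjustment over all genes and a threshold of 0.05. The procedure was tested on simulated data, with changes planted only in genes brighter than the median and larger than those of the kinesins called here. That test therefore does not show how well changes of their size are found. With 3 arrays a group the precision is limited, and an exact permutation test of 3 against 3 could not give a p below 0.1. The members, classes and lists were chosen with earlier results of these data known. Every member is accounted for: members past the threshold and the 3 brightest of each class are given by array, those that pass only without control replicate 1 by their change, list genes where past the threshold (at most 4 a list), and the 3 genes most correlated with each of the 2 most changed members. KIF14, KIF11, KIF15, KIF3C and others beyond this rule were named after their values were seen. Motifs were searched as exact letters.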

Additional observations from a re-analysis of the deposited data

Results flagged for a closer look

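KIF1B and KIF3A are set apart here because the effects of the 2 forms differed in the test of the difference itself. The difference for KIF1B, miR-376a*A minus miR-376a*G, was 0.96 on the log2 scale (SE 0.19, limma adjusted p = 0.0428), with means of 651 ± 48.7 for miR-376a*A and 328 ± 30.1 for miR-376a*G (SD, n = 3). That for KIF3A was 0.47 (SE 0.09, limma adjusted p = 0.0408), with means of 278 ± 7.85 for miR-376a*A and 197 ± 4.27 for miR-376a*G. In both cases all 3 miR-376a*A arrays were above all 3 miR-376a*G arrays, as for 10.9% of all genes. The 2 genes were picked by the test on these same arrays, so this separation adds no support. Both calls were lost when any 1 of the 6 arrays compared was left out. They were also lost with a replicate block (limma adjusted p = 0.107 for KIF1B and 0.137 for KIF3A).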

How the results depend on the processing

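Of 133 alternatives for the 7 calls on single kinesins, 75 kept their side of the threshold and 0 turned the direction. The number of kinesins called was 2 for miR-376a*A against control, 3 for miR-376a*G against control and 2 between the forms. For miR-376a*A against control it became 1 with a pseudocount of 64, 0 with median centring, 0 with the mean over a gene's probe sets, 0 with every probe set tested, 0 with only the 6 arrays compared in the fit and 4 with array quality weights, and it ran from 0 to 6 when 1 array was left out. For miR-376a*G against control it became 5 with the mean over probe sets, 0 with the 6 arrays and 9 with array weights, and it ran from 1 to 10 with 1 array left out. Between the forms it became 1 with a pseudocount of 64, 1 with median centring, 1 with the mean over probe sets, 0 with every probe set tested, 6 with the 6 arrays and 7 with array weights, and it ran from 0 to 6 with 1 array left out. In each range the highest count is that without control replicate 1, whose array weight was 0.116 against 0.815 to 1.87 for the others.

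The median of the mitotic kinesins was 0.17 under miR-376a*A and 0.34 under miR-376a*G. With median centring it was 0.25 and 0.44, and with 1 array left out it was 0.0726 to 0.22 and 0.24 to 0.40. The median of the transport kinesins under miR-376a*A was -0.08; it was -0.0118 with median centring, -0.0229 with the mean over probe sets and -0.0989 to -0.0111 with 1 array left out. Under miR-376a*G it was -0.11; it was -0.26 with dim genes left out, -0.0464 with array weights and -0.18 to -0.0704 with 1 array left out. Between the forms it was 0.02, and 0.0211 to 0.0741 with 1 array left out. The cause of these shifts was not tested.

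Over all 19775 genes, median centring moved the share of higher genes among those called to 65.5% under miR-376a*A and 63.5% under miR-376a*G, against 55.2% and 53.4% in the quantile-normalized data. The counts of called genes for miR-376a*A against control, miR-376a*G against control and between the forms were 339, 464 and 269, and they were 960, 1279 and 1111 with array weights and 112, 104 and 987 with only the 6 arrays compared. The main fit did not pair arrays by replicate number. For miR-376a*G and control, deviations of arrays with the same number correlated weakly, at 0.0931 to 0.116, and 5 of 6 arrays correlated best with their own number. A weak pairing of these 2 groups is therefore possible. The correlations were -0.240 to 0.0229 for miR-376a*A and control (1 of 6 arrays) and -0.0596 to -0.0409 between the forms (0 of 6), which shows no pairing there. A replicate block gave 188, 244 and 155 genes, and 0, 2 and 0 kinesins, the 2 being KIF1B and KIF2C. Members below the median brightness, 8 of 41, carry little information at this signal.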
